A study of Mus musculus with 18 samples.

Results

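The comparison described here is that of the quadriceps, the large and mostly fast-twitch muscle of the thigh, between mice with and without inducible loss of the oxygen sensor EglN1 in skeletal muscle. It rests on 6 arrays of the 18 in the series, chosen by the muscle and genotype in their titles: 3 of knockout (KO) and 3 of wild-type (WT) quadriceps. The 3 KO mice carried a floxed Egln1 gene and a skeletal-muscle Cre recombinase, and the 3 WT mice carried the recombinase with an intact Egln1 gene. All were of the C57BL/6 background, ate chow freely and received tamoxifen for 3 days before the tissues were taken, so tamoxifen and the recombinase are common to both groups. The series also holds soleus arrays from the same experiment and heart arrays from an inhibitor experiment, of which only the soleus is used, to ask whether a value in quadriceps differs from that in the second muscle. Age, sex, the promoter that drives the recombinase and the exons removed were not given in the sources used here. The labels call the 3 arrays of a group biological replicates.

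EglN1, also called PHD2, is a prolyl hydroxylase that uses molecular oxygen to hydroxylate the alpha subunits of HIF, the hypoxia-inducible transcription factors. The hydroxylated subunit is bound by the von Hippel-Lindau protein and degraded, so that loss of EglN1 is known to stabilise HIF at normal oxygen. In skeletal muscle HIF is known for its control of glycolytic enzymes, of pyruvate entry into mitochondria and of secreted vascular factors.

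All values are log2 intensities, on which a difference of 1 is a 2-fold change, and differences are KO minus WT. The quadriceps identity was clear from the arrays: the fast myosin gene Myh4 read 13.98 to 14.12, the skeletal actin gene Acta1 14.22 to 14.32 and the fast troponin gene Tnnt3 13.99 to 14.07 over the 6 arrays. The liver gene Alb read 5.64 to 5.74 and the atrial gene Nppa 6.29 to 6.74, near or below the level of 6.19 under which genes were not tested. Array medians lay between 6.69 and 6.72, and arrays of a group correlated at r from 0.992 to 0.995 across probe sets. Egln1 itself read 10.87, 10.67 and 10.92 in KO and 10.94, 10.99 and 10.95 in WT, a difference of -0.14 (SE 0.07) that did not pass the test (limma, adjusted p = 0.471). Its probe set summarises the whole transcript and the deleted part is not known, so this value is a limited check of the genotype. Slow fibre genes varied within both groups: the slow myosin gene Myh7 read 9.39 in KO replicate 2 and 8.60 in WT replicate 1, against 6.60 to 7.08 in the other 4 arrays.

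Of 13319 genes tested, 91 passed the test in quadriceps (0.683%; limma, Benjamini-Hochberg adjusted p under 0.05). Of these, 37 rose in KO (0.278% of genes tested) and 54 fell (0.405%). In all 91 the 3 KO arrays lay wholly on one side of the 3 WT arrays, which was the case for 16.5% of all genes tested. Gdpd3, Rspo3 and Piwil2 had a group whose arrays all lay below the level of 6.19, and their changes are given further on as bounds. The other 35 rises ran from 0.30 to 1.95 and the other 53 falls from 0.27 to 1.56. The medians over all 37 rises and all 54 falls, 0.55 and 0.46, are the same with these genes at their bounds. The median difference over all genes tested was -0.02, and 43.1% of genes lay above 0 and 56.9% below. The weakest calls were those of Slc11a2 and Slc25a36 (adjusted p = 0.0462 for both) and Exoc7 (0.0496), and the nearest genes outside the threshold were Naa40 (0.0504), Cpeb2 (0.0506; 0.0132 without KO replicate 3) and Ttyh2 (0.0507).

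**Figure D1:**
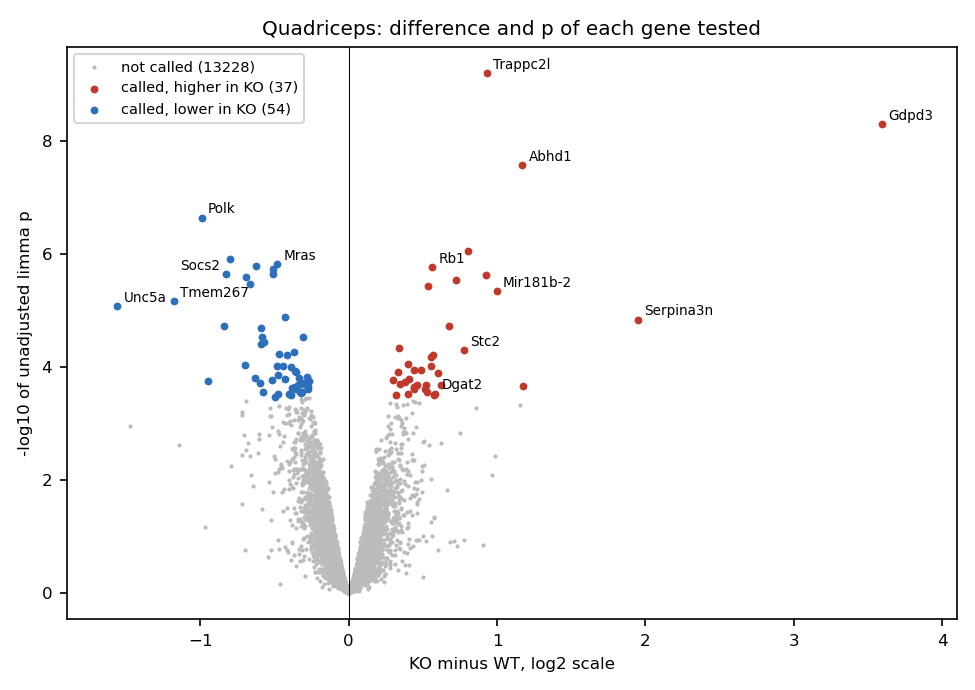
The log2 difference between KO and WT quadriceps (horizontal) is plotted against -log10 of the unadjusted limma p (vertical) for each of 13319 genes, with the 37 called higher in red, the 54 called lower in blue and the others in grey. Gdpd3 lies apart at its fitted value of 3.59, for which only a bound holds, while Trappc2l has the smallest p with a difference of 0.93.

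The called genes are grouped below by what they are known to do, a grouping made after their values were seen. Of all 91 calls 59.3% were falls, and a group of a few genes near that share is not set apart by its direction. Genes of lipid handling held the largest change. Of 7 called genes of this kind, 6 rose and 1 fell. Gdpd3, an enzyme that cleaves lysophospholipids into lysophosphatidic acid and a free head group, read 8.64, 9.50 and 8.93 in KO and 5.47, 5.66 and 5.17 in WT. Every WT array lay below the filter level and every KO array far above it, so the rise is a lower bound, at least 2.83 in log2 units or at least 7.11-fold (fitted difference 3.59, SE 0.26, limma adjusted p = 3.36e-05). Abhd1, which belongs to the alpha/beta-hydrolase family, read 7.97, 8.03 and 7.80 in KO and 6.72, 6.83 and 6.73 in WT, a rise of 1.17 (SE 0.10, limma adjusted p = 0.000117). The 3 arrays of each genotype agreed closely for this gene. Mid1ip1, which promotes the assembly of acetyl-CoA carboxylase into its active polymer, read 8.74, 8.78 and 8.64 in KO against 8.13, 7.98 and 7.87 in WT and rose by 0.72 (SE 0.09, limma adjusted p = 0.00251). A second probe set of Mid1ip1 differed by 0.15.

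The RefSeq promoter of Gdpd3 is shown because the gene moved most. The 150 bases upstream of the transcript start, on the plus strand of GRCm38.p6 at chr7:126766264-126766413, hold the hypoxia response core on either strand (ACGTG or GCGTG, or their complements CACGT and CACGC) at 110 and 70 bases before the start, in capitals.
Gdpd3: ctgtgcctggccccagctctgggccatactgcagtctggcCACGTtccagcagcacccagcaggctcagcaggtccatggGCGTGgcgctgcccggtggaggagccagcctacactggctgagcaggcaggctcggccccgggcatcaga
A match is a description and not a bound site. This core is common: within 300 bases around the start (250 before and 50 after) it occurred in 65.1% of the 10566 tested genes that have a promoter in the table. It occurred in 10 of 24 genes called higher (41.7%) and 28 of 43 called lower (65.1%), since 67 of the 91 called genes have a promoter there.

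Triglyceride synthesis and fatty acid uptake were each represented by 1 called gene. Dgat2, which catalyses the last step of triglyceride synthesis, read 9.87, 9.79 and 9.87 in KO and 9.49, 9.42 and 8.88 in WT, a rise of 0.58 (SE 0.12, limma adjusted p = 0.0462). The lowest WT array was replicate 3, and the call was lost without any 1 of the KO arrays or without WT replicate 2 (adjusted p from 0.0744 to 0.143). Cd36, the fatty acid translocase of the plasma membrane, read 11.60, 11.57 and 11.72 in KO against 11.32, 11.33 and 11.33 in WT, a rise of 0.30 (SE 0.06, adjusted p = 0.0408). This was the smallest of the 37 rises, with WT arrays almost equal to each other, and its call was lost when any 1 of the 6 arrays was left out (adjusted p from 0.0559 to 0.14). Phyhip, a partner of phytanoyl-CoA hydroxylase, rose by 0.52, and Serinc2, of a family that incorporates serine into membrane lipids, fell by 0.43. Idh1, the cytosolic isocitrate dehydrogenase that supplies NADPH, rose by 0.46.

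The fatty acid oxidation list, which follows a fatty acid from uptake through the mitochondrial spiral, had 22 members tested, with Cd36 as its 1 called member. Its differences were small and nearly all on one side: 21 of 22 lay above 0, against 43.1% of all genes, and the KO arrays of 11 lay above all WT arrays, against 5.65% of all genes. The median member differed by 0.15. Acadl, the long-chain acyl-CoA dehydrogenase, read 10.83, 10.97 and 11.01 in KO and 10.73, 10.66 and 10.57 in WT (difference 0.29, limma adjusted p = 0.0824). Acaa2, the thiolase of the last step, differed by 0.24, the trifunctional protein genes Hadha and Hadhb by 0.14 and 0.22, and Slc27a1, a fatty acid transporter, by 0.33. Acads, the short-chain dehydrogenase, was the member below 0, at -0.04. The mean over the list was 10.89 to 10.91 in the KO arrays and 10.675 to 10.79 in the WT arrays, which did not overlap. This was not particular to the list. Means of lists without a call also lay apart, higher in KO for pyruvate entry (10.43 to 10.48 against 10.41 to 10.42). They lay lower in KO for the unfolded protein and integrated stress list (8.79 to 8.82 against 8.86 to 8.92).

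Of 17 tested genes of lipid droplets and lipolysis, 1 rose (Dgat2) and the KO arrays of 6 lay above all WT arrays, against 5.65% of all genes, with a median difference of 0.17. The droplet coat gene Plin3 read 9.51, 9.51 and 9.28 in KO and 9.14, 8.83 and 9.05 in WT (difference 0.43, limma adjusted p = 0.0687; 0.0404 without KO replicate 3). Plin5, the coat protein of oxidative tissue, differed by 0.27 (adjusted p = 0.218), and G0s2, the inhibitor of adipose triglyceride lipase, by 0.27 (adjusted p = 0.195). Pnpla3 was the member separated the other way, at -0.28 (adjusted p = 0.306). Of 7 adipocyte markers none passed, 6 lay above 0 (43.1% of all genes did) and their median was 0.25. Their mean overlapped between the groups, at 9.11 to 9.35 in KO and 8.78 to 9.27 in WT. The lipid droplet gene Cidec differed by 0.47 (adjusted p = 0.572) and the fatty acid binding protein gene Fabp4 by 0.25 (0.364). Adipoq, the defining adipocyte hormone, read 8.28, 7.996 and 8.05 in KO and 7.43, 8.42 and 7.34 in WT, so that these groups overlapped, and the list median was 0.48 without WT replicate 2 and 0.15 without WT replicate 1. The part of adipose RNA in the lipid differences was not tested. Of a whole muscle, fewer cells of a type and less RNA per cell cannot be told apart.

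Other metabolic lists showed few or no calls. None of 26 respiratory chain genes passed (median 0.05), none of 16 genes of the TCA cycle (0.05), none of 18 of glycolysis (0.02), none of 15 of glycogen (0.02), none of 13 of pyruvate entry (0.05) and none of 17 mitochondrial regulators (0.01). Above 0 lay 20 of the 26 respiratory chain genes, 11 of 16 of the TCA cycle and 11 of 13 of pyruvate entry. The same held for 11 of 18 of glycolysis, 8 of 15 of glycogen and 10 of 17 mitochondrial regulators, against 43.1% of all genes. The members with the largest differences were Ndufv2 (0.12), Idh2 (0.24), Pfkfb3 (-1.14), Gbe1 (0.23), Pcx (-0.34) and Ppara (0.25), and those with the smallest p were others in 2 of these lists, Pdp1 (0.25; adjusted p = 0.0385 without KO replicate 2) for pyruvate entry and Rxra (-0.23) for mitochondrial regulators. Among 19 lipid synthesis genes Mid1ip1 alone passed, with a list median of -0.01, and among 18 enzymes of lysophospholipids and glycerophosphodiesters Gdpd3 alone passed, with a list median of -0.00493. The close relatives of Gdpd3 in that list thus gave no further call. Of 17 amino acid genes, Odc1, the first enzyme of polyamine synthesis, fell by 0.48, and Asns, asparagine synthetase, differed by 0.55 (adjusted p = 0.236). None of 11 tryptophan and kynurenine genes passed, with Slc7a5 at 0.30 and Qprt at -0.28.

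**Figure D2:**
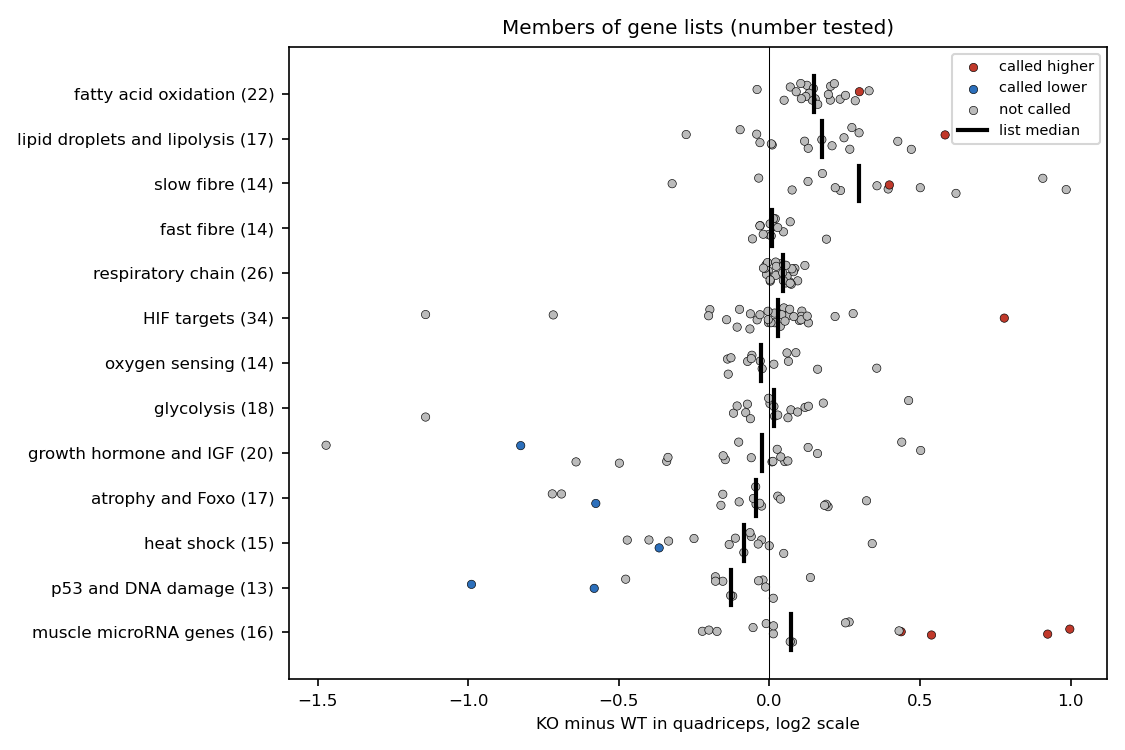
Each point is the log2 difference between KO and WT quadriceps of 1 tested member of a gene list, red or blue where it was called and grey otherwise, with the list median as a black bar and the number tested in brackets. Fatty acid oxidation members sit nearly all above 0 around a median of 0.15, those of the p53 and DNA damage list lie mostly below 0 around -0.13, and respiratory chain members cluster near 0.05.

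Among secreted proteins, 3 rose and none fell, with Rspo3 among the 3 though it read near or below the filter level in both genotypes. Serpina3n, an acute-phase inhibitor of serine proteases, read 9.25, 10.10 and 9.29 in KO and 7.82, 7.53 and 7.44 in WT, a rise of 1.95 (SE 0.29, limma adjusted p = 0.00878; 0.0556 without WT replicate 3). KO replicate 2 was the highest of the 6 arrays. Of the 13 tested acute phase genes Serpina3n was the 1 that passed. The list median was 0.05. Stc2, stanniocalcin, a secreted glycoprotein and known HIF target, read 8.94, 8.502 and 8.44 in KO against 7.88, 7.78 and 7.88 in WT and rose by 0.78 (SE 0.13, adjusted p = 0.0219). Its call was lost without any 1 of the WT arrays (adjusted p from 0.0543 to 0.0876). Rspo3, a secreted amplifier of Wnt signalling, read 6.192, 6.32 and 6.20 in KO, against a filter level of 6.194. Its WT arrays all lay below that level, so its rise is at least 0.04, and KO replicate 1 was just below it too. Its quadriceps means were 5.75 in WT and 6.24 in KO. It passed the filter through its soleus arrays, with means of 8.94 in WT and 8.79 in KO. Its call in quadriceps thus rests on values near or below the filter level. Among 14 muscle-secreted factors Stc2 was the 1 call, and the list median was 0.11; Il15 differed by 0.39 (adjusted p = 0.185) and Ostn, which encodes musclin, by -0.45 (adjusted p = 0.189).

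The HIF target list had 34 members tested, of which Stc2 rose and none fell (median 0.03). The largest difference was that of Pfkfb3, the kinase that makes the activator of phosphofructokinase, which read 10.35, 10.40 and 10.51 in KO and 11.47, 11.93 and 11.29 in WT (difference -1.14, SE 0.30, limma adjusted p = 0.132). All 3 KO arrays were below all WT arrays. Vegfa, the vascular growth factor, read 10.99, 11.03 and 11.08 in KO against 11.10, 11.01 and 10.94 in WT (difference 0.02, adjusted p = 0.968). The glucose transporter gene Slc2a1 differed by -0.20, the collagen hydroxylase gene P4ha1 by -0.20 and the pyruvate dehydrogenase kinase gene Pdk1 by 0.11. Ddit4, an inhibitor of mTOR signalling, differed by -0.72 (adjusted p = 0.351). None of 14 genes of oxygen sensing passed (median -0.03). Among them Egln3 read 10.16, 10.02 and 10.53 in KO and 10.33, 9.72 and 9.60 in WT (difference 0.36, adjusted p = 0.513), Egln2 differed by -0.14, Hif1an by -0.13, Vhl by 0.09, Hif1a by 0.16, Epas1 by 0.06 and Arnt by 0.01.

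The upstream part of the RefSeq Stc2 promoter is shown as that of the called HIF target. The stretch lies on the minus strand of GRCm38.p6 at chr11:31370162-31370311, with the core in capitals at 240 and 231 bases before the start.
Stc2: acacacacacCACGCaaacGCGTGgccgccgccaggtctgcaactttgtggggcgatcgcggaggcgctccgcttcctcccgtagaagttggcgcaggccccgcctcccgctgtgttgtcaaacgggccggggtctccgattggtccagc
Of 29 tested HIF target genes with a promoter in the table, 27 held the core in their 300 bases (93.1%), Stc2 and genes near 0 alike.

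Genes of growth hormone signalling, in which the receptor activates STAT5 and STAT5 induces its own inhibitors, gave 1 call among 20 tested. Socs2, the feedback inhibitor that binds the growth hormone receptor, read 10.01, 9.77 and 9.71 in KO and 10.55, 10.74 and 10.67 in WT, a fall of 0.83 (SE 0.10, limma adjusted p = 0.00241). Its second probe set differed by -0.77. Cish, the other STAT5-induced inhibitor, had a larger but more variable difference: it read 7.92, 7.23 and 6.97 in KO and 9.09, 9.47 and 7.98 in WT (difference -1.47, SE 0.35, adjusted p = 0.0892; 0.0283 without WT replicate 3). The highest KO array and the lowest WT array were only just apart. Igf1, the growth factor that growth hormone induces, read 8.32, 8.77 and 8.24 in KO against 8.96, 9.33 and 8.97 in WT (difference -0.64, adjusted p = 0.269). Igfbp5, the main IGF-binding protein of muscle, differed by -0.50 (adjusted p = 0.174), Igfbp3 by 0.50 (0.128) and the insulin receptor substrate Irs1 by -0.34 (0.108). The KO arrays of 5 of the 20 members, Socs2, Cish, Igf1, Igfbp5 and Irs1, lay below all WT arrays, against 10.9% of all genes. Those of 1 member lay above all WT arrays, against 5.65% of all genes. The list as a whole was evenly split, with 10 members above 0 and 10 below. The receptor and its kinase read alike in both groups, with differences of 0.05 for Ghr and 0.03 for Jak2, and the list median was -0.03.

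A 20-base stretch of Cish is shown because it holds 2 copies of the STAT motif TTCNNNGAA, which do not overlap, directly after the RefSeq transcript start, at 1 and 12 bases from it (plus strand of GRCm38.p6, chr9:107296659-107296678; motifs in capitals).
Cish: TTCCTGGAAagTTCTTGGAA
The motif occurred in 8.03% of tested genes with a promoter, in 3 of 18 of this list (16.7%), in 6 of 43 genes called lower and in none of 24 called higher.

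Adaptors of ubiquitin ligases were among the falls: Socs2 itself, Klhl30 and Asb2. With Cops8, which encodes a subunit of the COP9 signalosome and not an adaptor, they formed a group of 4 called genes. All 4 fell, against 59.3% falls among all calls. Klhl30, a kelch-repeat protein of muscle, read 9.37, 9.49 and 9.22 in KO and 9.92, 9.98 and 10.05 in WT, a fall of 0.62 (SE 0.07, limma adjusted p = 0.00241). Asb2, which targets filamins for degradation, read 11.15, 11.15 and 11.59 in KO and 11.97, 11.70 and 11.95 in WT, a fall of 0.58 (SE 0.12, adjusted p = 0.0462). KO replicate 3 lay only just below WT replicate 2, and the call was lost without KO replicate 1 or 2 or without any 1 of the WT arrays (adjusted p from 0.0538 to 0.183). Cops8 fell by 0.32. Asb2 was the 1 call among 17 genes of muscle atrophy and Foxo signalling (median -0.04). The principal ligases of atrophy had larger differences that did not pass. Trim63, known as MuRF1, read 10.32, 10.76 and 10.45 in KO and 11.59, 10.88 and 11.22 in WT (difference -0.72, adjusted p = 0.0677; 0.0352 without WT replicate 2). Fbxo32, known as atrogin, read 11.03, 11.14 and 11.75 in KO and 12.13, 11.92 and 11.93 in WT (difference -0.69, adjusted p = 0.0542; 0.000327 without KO replicate 3). Both genes thus had KO arrays below all WT arrays, as had 3 of the 17 list members and 10.9% of all genes. In the other direction 1 of the 17 was separated. Foxo1, the regulator of both ligases, differed by 0.32 with overlapping arrays.

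**Figure D3:**
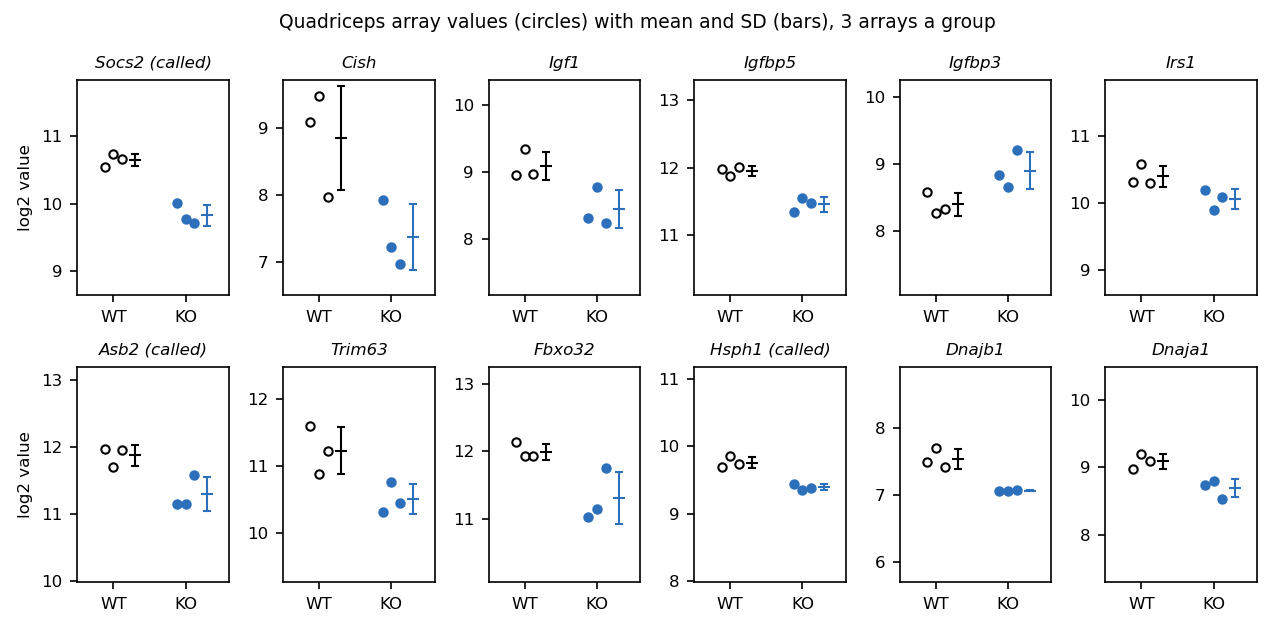
Log2 values of the 3 WT and 3 KO quadriceps arrays (circles) with group mean and SD (bars) for 12 genes, in panels that each span the same 3.2 log2 units. Socs2, Asb2 and Hsph1 passed the test, and Cish shows a wide spread in both groups around its difference of -1.47.

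Heat shock genes lay mostly below 0. Hsph1, a nucleotide exchange factor of the HSP70 chaperones, read 9.45, 9.35 and 9.38 in KO and 9.69, 9.85 and 9.74 in WT, a fall of 0.37 (SE 0.06, limma adjusted p = 0.0226). It was the 1 call among 15 tested members, of which 13 lay below 0 (56.9% of all genes did) and 5 had all KO arrays below all WT arrays (10.9% of all genes), with a median of -0.08. The co-chaperone gene Dnajb1 read 7.05, 7.06 and 7.07 in KO against 7.48, 7.70 and 7.42 in WT (difference -0.47, adjusted p = 0.0613). Dnaja1 differed by -0.40 (adjusted p = 0.07), Hspb8 by -0.33 (0.0736) and Hsp90aa1 by -0.25 (0.186). The cardiac and slow muscle chaperone gene Hspb7 was on the other side, at 0.34, with its highest value in KO replicate 2. The list median was -0.15 without KO replicate 2, -0.14 without WT replicate 3 and -0.04 without KO replicate 3. The call of Hsph1 was lost without any 1 of the KO arrays or without WT replicate 2 or 3 (adjusted p from 0.0515 to 0.0919).

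The p53 and DNA damage list gave 2 falls among 13 tested genes, against 0.405% of all genes. Of the 13, 11 lay below 0 (56.9% of all genes did), with a median of -0.13. Polk, a translesion DNA polymerase, read 7.98, 7.78 and 8.06 in KO and 8.81, 8.92 and 9.06 in WT, a fall of 0.99 (SE 0.10, limma adjusted p = 0.000755). Phlda3, a p53 target that restrains Akt at the membrane, read 10.54, 10.52 and 10.73 in KO and 11.13, 11.21 and 11.18 in WT, a fall of 0.58 (SE 0.09, adjusted p = 0.0146). These are different kinds of gene, 1 a repair polymerase and 1 a signalling inhibitor. Eda2r, a receptor induced by p53, read 7.85, 8.13 and 8.24 in KO against 8.63, 8.45 and 8.57 in WT (difference -0.48, limma adjusted p = 0.215). The classical targets Mdm2 and Ccng1 differed by 0.01 and -0.02. The list mean was 9.001 to 9.04 in KO and 9.21 to 9.25 in WT. It includes Polk, Phlda3 and Eda2r, so it is not separate from their differences and does not show a shift of the whole list. With estimated array weights the median was -0.07, and without KO replicate 2 it was -0.08.

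Of 6 further lists of stress, hormone and turnover genes, none gave more than 1 call. No member passed among 17 genes of the unfolded protein and integrated stress responses (median -0.03; Chac1, a glutathione-degrading enzyme, at -0.79 with adjusted p = 0.195), 17 antioxidant genes (median -0.04; Mt1 at 0.40 and Gclm at -0.34, which passed without KO replicate 3 with adjusted p = 0.035) and 15 immediate early genes (median -0.07; Fos at -0.58 and Btg2 at -0.38). Of 14 interferon response genes, Tmem140 read 8.95, 8.81 and 8.83 in KO and 9.66, 9.36 and 9.56 in WT and fell by 0.66 (SE 0.08, limma adjusted p = 0.00279); the list median was -0.04. None of 16 glucocorticoid response genes passed (median 0.02), and none of 16 genes of mitophagy and autophagy (median -0.06; Ulk1 at -0.20 and Tfeb at -0.17).

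Of 7 called cell surface receptors, 3 rose and 4 fell, near the 59.3% of falls among all calls. Unc5a, a receptor of the guidance cue netrin, had the largest fall of all: it read 7.30, 8.23 and 7.07 in KO and 9.10, 9.11 and 9.07 in WT, a fall of 1.56 (SE 0.22, limma adjusted p = 0.00564). The WT arrays were almost equal, and KO replicate 2 was the highest of the KO arrays. Without it the difference was -1.88. Unc5a belongs to the list of synapse and denervation genes, of which 17 were tested, 1 fell (Unc5a) and 1 rose (Gadd45b), with a median of 0.08. Among the other receptors, Ror1, a Wnt receptor of the tyrosine kinase family, read 8.42, 8.46 and 8.15 in KO and 7.72, 7.54 and 7.90 in WT and rose by 0.62 (SE 0.12, adjusted p = 0.0415). Lpar6, a receptor of lysophosphatidic acid, rose by 0.56 and Vipr2, a receptor of vasoactive intestinal peptide, by 0.41. Mrgprh, Gprc5c and Gpr146, all G protein-coupled receptors, fell by 0.52, 0.48 and 0.35.

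Of 5 called genes of ion channels, 4 fell. Cacng7, an auxiliary gamma subunit related to those of calcium channels, read 8.54, 8.26 and 8.27 in KO and 9.13, 9.02 and 8.997 in WT, a fall of 0.69 (SE 0.09, limma adjusted p = 0.00246). Kcnf1, a silent subunit of voltage-gated potassium channels, read 6.76, 6.82 and 6.61 in KO and 7.64, 7.27 and 7.07 in WT and fell by 0.60 (SE 0.12, adjusted p = 0.0415). Its WT arrays were more spread than its KO arrays. Kcnab1, a beta subunit of these channels, fell by 0.43 and Tmem266, a voltage-sensor protein, by 0.57, while Tmem37, a gamma-like subunit, rose by 0.44. Cacng7 was the 1 call among 17 genes of excitation and calcium handling (median -0.02), in which the potassium channel gene Kcnj11 read 9.66, 9.46 and 9.57 in KO and 9.89, 9.93 and 9.92 in WT (difference -0.35, adjusted p = 0.0677). Carriers followed with 3 falls and 1 rise. Slc38a4, an amino acid transporter, fell by 0.47, Slc25a36, a mitochondrial nucleotide carrier, by 0.40 and Slc11a2, the divalent metal transporter, by 0.39. Abcb10, a mitochondrial transporter needed for haem synthesis, rose by 0.38, and with Slc11a2 it made the 2 calls among 19 iron and haem genes (median 0.03).

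In Ras and mitogen-activated kinase signalling, 3 genes rose and 2 fell. Gadd45b, a stress-induced activator of these cascades, read 9.27, 9.003 and 9.16 in KO and 8.62, 8.33 and 8.45 in WT, a rise of 0.68 (SE 0.10, limma adjusted p = 0.0105). Dusp7, a phosphatase of ERK, rose by 0.55 and Rapgef2, an exchange factor of Rap proteins, by 0.44. Mras, a muscle Ras protein, read 7.79, 7.86 and 7.96 in KO and 8.32, 8.38 and 8.36 in WT and fell by 0.48 (SE 0.06, adjusted p = 0.00241). Ksr1, the scaffold of the Raf cascade, fell by 0.36. The calls of this kind were thus divided between the directions.

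Among genes of the sarcomere and cytoskeleton, 2 rose and 5 fell. Lmod2, which nucleates actin thin filaments, read 10.26, 10.60 and 10.75 in KO and 10.10, 9.84 and 9.88 in WT, a rise of 0.60 (SE 0.11, limma adjusted p = 0.0359). KO replicate 1 was the nearest to the WT arrays. Fhl1, a LIM-domain protein of the sarcomere, read 12.37, 12.72 and 12.64 in KO and 12.09, 12.23 and 12.21 in WT and rose by 0.40 (SE 0.08, adjusted p = 0.0462). Smtnl2, a smoothelin-like protein, read 10.90, 10.93 and 11.09 in KO against 11.55, 11.49 and 11.65 in WT and fell by 0.59 (SE 0.09, adjusted p = 0.0108). All 3 genes had separated groups, as all 91 called genes had. The motor protein gene Kif3c fell by 0.44, the microtubule kinase gene Mark2 by 0.36, Dmpk, the kinase of myotonic dystrophy, by 0.31 and the formin gene Fhod3 by 0.27.

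Fhl1 was the 1 call among 14 slow fibre markers, which lay above 0 in 12 cases (43.1% of all genes did) with a median of 0.30. Their levels moved with single arrays. The list mean was 8.70 to 10.14 in KO and 8.62 to 9.50 in WT, and the highest arrays were KO replicate 2 and WT replicate 1. Myoz2, which encodes the Z-disc protein calsarcin of slow muscle, read 9.98, 11.29 and 10.82 in KO and 10.08, 9.91 and 9.14 in WT (difference 0.99, limma adjusted p = 0.163; 0.0416 without KO replicate 1), Csrp3, a stretch-responsive Z-disc protein, differed by 0.62 (0.129) and Myl2, the slow regulatory light chain, by 0.91 (0.608). These overlapped or varied between arrays more than the fast markers did. None of 14 fast fibre markers passed (median 0.01), and the largest difference among them was that of Myh1, 0.19. The spread in the test is shared with soleus, where some fast genes vary widely: Myh4 read 8.99 to 13.31 in soleus WT. Actn3 had an SE of 0.38, though its quadriceps arrays read 13.87 to 13.97. For such genes a small difference in quadriceps could hardly pass. A slow fibre level of each array, the mean of Myh7, Myl2, Myl3, Tnnt1, Tnni1 and Tnnc1, was added to the model as a covariate. It is narrower than the list of 14 and had a common slope over quadriceps and soleus arrays. With it 50 genes passed, of which 46 were among the 91. Cd36 (limma adjusted p = 0.0584), Dgat2 (0.0748) and Asb2 (0.0707) no longer did. The median of the fatty acid oxidation list was 0.15 with this covariate too. None of 14 regeneration genes passed (median 0.08), with Ankrd2, a stretch-responsive protein, at 0.51 (limma adjusted p = 0.193). Of these 14, 12 lay above 0, against 43.1% of all genes.

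In transcription and chromatin 2 called genes rose and 7 fell, against 59.3% falls among all calls. Arntl, which encodes the clock activator BMAL1, read 7.12, 6.90 and 7.51 in KO and 7.95, 8.11 and 8.31 in WT, a fall of 0.95 (SE 0.18, limma adjusted p = 0.0408). It was the 1 call among 12 core clock genes (median 0.01), and the call was lost without KO replicate 1 or 2 or without any 1 of the WT arrays (adjusted p from 0.0715 to 0.154). Per2 and Per3, period repressors of the clock, differed by 0.38 (0.248) and 0.35 (0.153), and Nr1d1, a repressor of Arntl, by -0.42 (0.181). Among 12 clock output genes none passed, 10 lay above 0 (43.1% of all genes did) and the median was 0.12. Dbp, a direct target of the clock activator, read 11.17, 11.13 and 10.98 in KO and 10.71, 10.68 and 10.55 in WT (difference 0.45, limma adjusted p = 0.0551). The hour at which tissues were taken was not given in the sources used here.

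Kdm8, a JmjC-domain hydroxylase, read 7.43, 7.22 and 7.67 in KO and 7.995, 8.19 and 8.01 in WT, a fall of 0.63 (SE 0.12, limma adjusted p = 0.0404). Auts2, a partner of Polycomb complexes, read 7.86, 8.30 and 8.05 in KO and 8.55, 8.66 and 8.78 in WT and fell by 0.59 (SE 0.10, adjusted p = 0.0182). The remaining falls of this kind were smaller: 0.38 for Jade2, of a histone acetyltransferase complex, 0.33 for the histone gene H4c9, 0.28 for Klf7 and 0.27 for Zhx2. Rb1, the retinoblastoma tumour suppressor, read 9.95, 9.96 and 9.84 in KO and 9.26, 9.39 and 9.41 in WT and rose by 0.56 (SE 0.07, adjusted p = 0.00241), and the zinc finger gene Zfp608 rose by 0.34. Lpar6 lies within Rb1 in the RefSeq annotation, and the files do not show whether the probes of each read 1 or both transcripts.

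Genes of RNA handling and translation were called lower in 5 of 6 cases. Cpeb1, which controls polyadenylation and translation of messenger RNA, read 8.55, 8.54 and 9.08 in KO and 9.47, 9.58 and 9.64 in WT, a fall of 0.84 (SE 0.13, limma adjusted p = 0.0105; 0.0671 without KO replicate 1 and 0.0651 without WT replicate 3). KO replicate 3 lay nearest to the WT arrays. Gtf3a, the transcription factor of ribosomal 5S RNA, fell by 0.42, Mettl1, a transfer RNA methyltransferase, by 0.36 and Naa16, a subunit of the amino-terminal acetyltransferase, by 0.34. Piwil2, an Argonaute-family partner of piRNAs, fell by at least 0.16, since all of its KO arrays lay below the filter level. Its quadriceps means were 6.35 in WT and 5.97 in KO, against a filter level of 6.19. It passed the filter with the help of its soleus arrays, with means of 6.68 in WT and 5.98 in KO. The Piwil2 call in quadriceps thus rests on values near or below the filter level. Ppwd1, a spliceosome-associated peptidyl-prolyl isomerase, read 8.85, 8.63 and 8.94 in KO and 7.84, 8.10 and 8.05 in WT and rose by 0.81 (SE 0.09, adjusted p = 0.00235).

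Several leading genes fell outside these groups. Trappc2l, which encodes a component of the TRAPP vesicle-tethering complexes, read 10.53, 10.52 and 10.43 in KO and 9.53, 9.54 and 9.63 in WT, a rise of 0.93 (SE 0.06) with the smallest p of the comparison (limma adjusted p = 8.37e-06). Lrmda, which encodes a protein with leucine-rich repeats and is linked to melanocytes, read 7.55, 7.34 and 8.11 in KO and 6.14, 6.804 and 6.53 in WT, a rise of 1.17 (SE 0.23, adjusted p = 0.0415). Its arrays were spread in both groups, and the call was lost when any 1 of the 6 was left out (adjusted p from 0.0538 to 0.131). Ctse, the aspartic protease cathepsin E, read 6.86, 7.16 and 6.96 in KO and 6.58, 6.16 and 6.51 in WT and rose by 0.57 (SE 0.12, adjusted p = 0.0462). Tmem267, a membrane protein, read 9.67, 9.44 and 9.90 in KO and 10.96, 10.49 and 11.10 in WT and fell by 1.18 (SE 0.16, adjusted p = 0.00485). The lowest WT array of Tmem267 was above its highest KO array, and the groups were separated in all 91 called genes. Ppp1r27, a regulatory subunit of protein phosphatase 1, read 8.89, 9.26 and 9.22 in KO and 9.82, 9.65 and 9.99 in WT and fell by 0.70 (SE 0.12, adjusted p = 0.0311). Esd, an esterase that acts on formylglutathione, and the kinase gene Mast4 both fell by 0.51 (adjusted p = 0.00241 for each). Car4, a membrane-anchored carbonic anhydrase, rose by 0.51.

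The remaining calls are given by their differences alone. Those that rose were Cep85l, a centrosomal protein (0.57), the unnamed clone 2610005L07Rik (0.53), the kinase gene Stk35 (0.40), Clmn, an actin-binding membrane protein (0.35), the cyclin gene Ccni (0.33) and Rmdn1, a microtubule-associated protein (0.32). Those that fell were Exoc7, a subunit of the exocyst (-0.50), Ccdc134 (-0.47), Fam53b (-0.39), the tetraspanin gene Tspan14 (-0.39), Mblac2 (-0.33), Atraid (-0.31), Hgsnat, a lysosomal acetyltransferase of heparan sulfate breakdown (-0.31), Sh3bp5 (-0.30) and Def8 (-0.27).

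**Figure D4:**
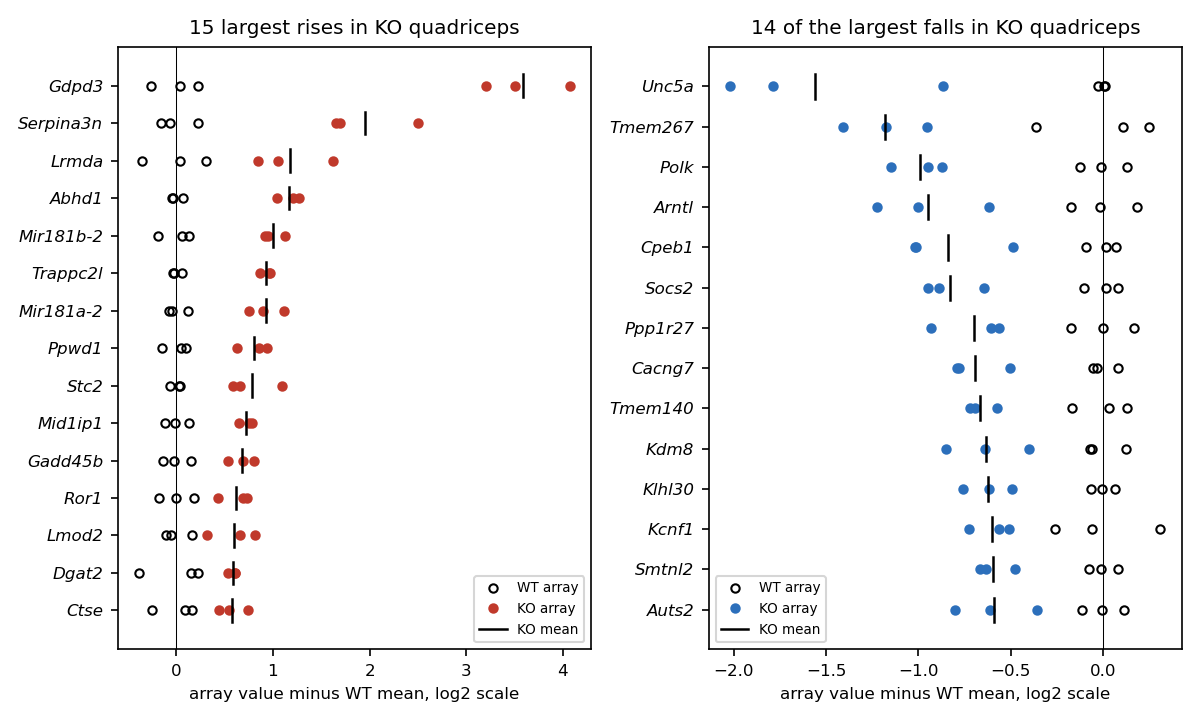
Array values minus the WT mean (log2 scale) for the 15 largest rises (left) and 14 of the largest falls (right) in KO quadriceps, with WT arrays as open circles, KO arrays as filled circles and the KO mean as a bar. In each gene, as in all 91 called genes, the 3 KO arrays lie apart from the 3 WT arrays. The KO arrays are closely grouped for Trappc2l and Abhd1 and widely spread for Unc5a and Serpina3n.

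All 4 called microRNA genes rose, and they fall into families by their seed, the bases 2 to 8 that pair with targets. Their RefSeq mature 5p sequences are given with the seed in capitals, on GRCm38.p6. The seed is shared within each family and differs between the miR-181 and miR-30 families.
mmu-miR-181a-5p (Mir181a-2, chr2:38852741-38852763, plus strand): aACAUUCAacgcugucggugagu
mmu-miR-181b-5p (Mir181b-2, chr2:38853845-38853868, plus strand): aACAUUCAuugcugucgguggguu
mmu-miR-30c-5p (Mir30c-2, chr1:23291714-23291736, plus strand): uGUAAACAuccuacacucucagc
mmu-miR-30e-5p (Mir30e, chr4:120772660-120772681, minus strand): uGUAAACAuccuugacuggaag
The arrays measured total RNA with a whole-transcript design, so these probe sets may read the hairpin or its host transcript and not the mature microRNA. Mir181b-2 read 8.67, 8.499 and 8.46 in KO and 7.36, 7.68 and 7.60 in WT, a rise of 1.00 (SE 0.13, limma adjusted p = 0.00332). Mir181a-2 read 7.78, 7.56 and 7.41 in KO and 6.78, 6.59 and 6.61 in WT, a rise of 0.92 (SE 0.11, adjusted p = 0.00241). Their hairpins start 1095 bases apart on the same strand. Mir30c-2 rose by 0.54 (limma adjusted p = 0.00286) and Mir30e by 0.44 (limma adjusted p = 0.0335), from different chromosomes. Both read low, with means of 6.86 in KO and 6.32 in WT for Mir30c-2 and of 6.79 and 6.35 for Mir30e. Their WT values were thus near the filter level of 6.19. The call of Mir30e was lost in 9 of 17 alternatives. The other genes of the same seed families did not all follow: Mir181c differed by 0.01, Mir181d by -0.01, Mir30d by 0.01 and Mir30a by 0.26. Among 16 microRNA genes tested from a list of 30, 7 had all KO arrays above all WT arrays (5.65% of all genes did), the median was 0.07, and the muscle microRNA genes Mir1a-1 and Mir133a-1 differed by -0.22 and -0.20.

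Lists of other cell types gave no calls. None passed of 15 endothelial markers (median 0.05; Emcn 0.18, Cldn5 0.17), 12 of smooth muscle and pericytes (0.06; Pdgfrb 0.28, Rgs5 0.26), 13 of fibroblasts and matrix (0.05; Postn 0.60, Pdgfra 0.18), 8 of tendon (0.18; Chad 0.39, Mkx 0.23), 13 of macrophages and leukocytes (0.05; Cd74 -0.17, Cd3e 0.06), 2 of erythroid cells (0.13; Slc4a1 0.21), 6 of nerve and Schwann cells (-0.00193; Cnp -0.21) and 8 of heart muscle (-0.08; Tnni3 -0.43). Their mean levels overlapped between KO and WT arrays in each of these lists. Over all 44 lists, 628 different genes were tested and 24 were called, 13 higher and 11 lower, and 67 of the 91 called genes were in no list.

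Some of the called genes are neighbours. By RefSeq gene order, 23 of the 91 (25.3%) have another called gene within 10 tested genes, as do 1580 of all 13285 tested genes with a place in that order (11.9%). No test of this difference was made. Neighbours could move together, as Rb1 with Lpar6 and Mir181a-2 with Mir181b-2 (both higher) or Kcnf1 with Odc1 and Cops8 with Klhl30 (both lower). They could also move apart, as Ppwd1 (higher) and Mast4 (lower), Phyhip (higher) and Piwil2 (lower), Abhd1 (higher) and Atraid (lower), Idh1 (higher) and Klf7 (lower), and Serpina3n and Clmn (higher) beside Asb2 (lower). Rb1 and Lpar6 (higher) likewise lie beside Esd (lower), and Abcb10 (higher) beside Def8 (lower). On the chromosome of the targeted gene, Abcb10 (higher), Def8 (lower) and Trappc2l (higher) lie 16, 26 and 45 tested genes from Egln1, and Hgsnat (lower) and 2610005L07Rik (higher) lie 588 and 627 tested genes from it.

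The same contrast in soleus passed for 24 genes (0.18%). Of the 37 genes called higher in quadriceps, 35 lay above 0 in soleus with a median of 0.40, and 12 of them were called there too. Of the 54 called lower, 50 lay below 0 in soleus with a median of -0.17, and 4 were called. Of all genes tested, 50.3% lay above 0 in soleus. Soleus and quadriceps of a genotype come from the same animals as the labels are read here, so the 2 muscles are not independent. For Gdpd3 all WT arrays lay below the filter level in both muscles, so its difference is at least 3.23 in soleus and at least 2.83 in quadriceps. Serpina3n differed by 2.01 in soleus and 1.95 in quadriceps, and Trappc2l by 0.89 and 0.93. Polk differed by -0.13 in soleus and -0.99 in quadriceps, Cpeb1 by 0.00487 and -0.84, Cacng7 by -0.12 and -0.69, and Rb1 by 0.14 and 0.56. For lipid genes the pairs were 0.05 and 0.58 for Dgat2, 0.02 and 0.30 for Cd36, and -0.05 and 0.29 for Acadl.

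The difference of the 2 knockout effects itself passed for 0 of 13319 genes (limma, 0%), with 851 at an unadjusted p under 0.05 (6.39%). The smallest adjusted p among the 91 was 0.109, for Polk. By this test no gene can be called particular to quadriceps.

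**Figure D5:**
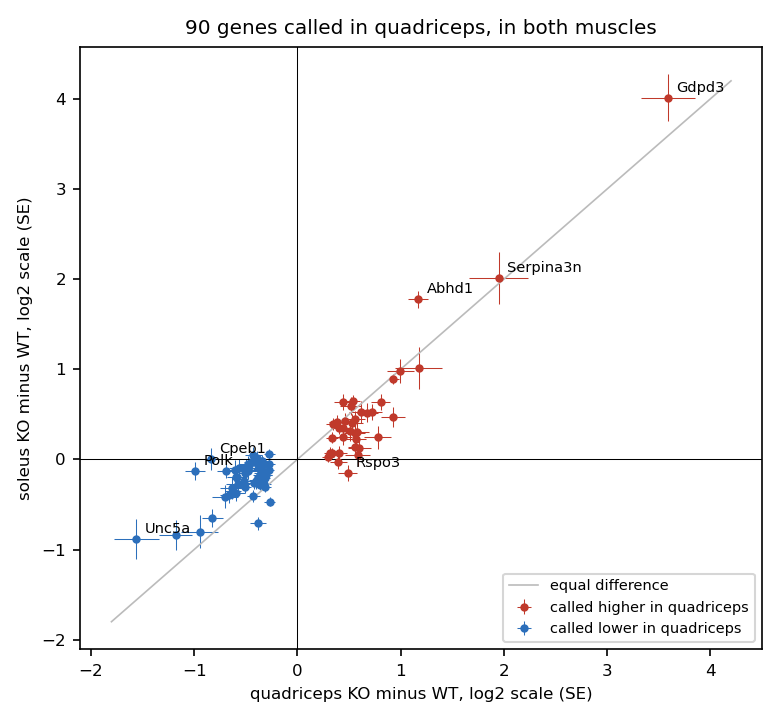
The log2 difference between KO and WT in quadriceps (horizontal) and soleus (vertical), each with its SE, for 90 genes called in quadriceps, red where higher and blue where lower, with a grey line of equal difference. Genes called higher scatter around the line up to Gdpd3, plotted at its fitted values, while most of those called lower lie between the line and 0 in soleus, such as Polk at -0.99 and -0.13.

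Calls with 3 arrays a group depended on single arrays. Without KO replicate 1, 2 or 3 the test called 29, 45 and 75 genes, of which 26, 37 and 49 were among the 91. Without WT replicate 1, 2 or 3 it called 58, 33 and 25 genes, of which 46, 31 and 23 were among the 91. Over 17 alternatives, 9 genes passed in every one, among them Gdpd3, Abhd1, Trappc2l, Mir181a-2, Mid1ip1, Polk, Tmem267 and Cacng7. A further 14 failed in 1 to 3 alternatives, 26 in 4 to 8 and 42 in 9 or more, and none of the 91 changed direction. Calls of leading genes that were lost without at least 1 single array, beyond those given above, were those of Gadd45b (KO replicate 1, WT replicates 2 and 3; adjusted p from 0.0526 to 0.0671), Smtnl2 (KO replicate 1 and WT replicate 3; 0.067 and 0.0685), Phlda3 (KO replicates 1 and 2, WT replicates 2 and 3; 0.0559 to 0.0734) and Auts2 (KO replicate 1, WT replicates 2 and 3; 0.0647 to 0.0997). For Ppp1r27 they were lost without KO replicate 1 or 3 or WT replicate 1 or 3 (0.0529 to 0.126), and for Lmod2 without KO replicate 2 or 3 or WT replicate 2 or 3 (0.0907 to 0.143). Those of Ror1 (0.0617 to 0.155), Kdm8 (0.0584 to 0.148), Kcnf1 (0.0715 to 0.125), Ctse (0.103 to 0.153) and Fhl1 (0.133 to 0.14) were lost without each of 5 arrays in turn.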

How the data were processed

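Gene expression was measured on Affymetrix whole-transcript mouse arrays. The deposited values are on a log2 scale and come from the RMA method (robust multi-array average) as run by the authors, which the submitters' processing notes name. Its version, the arrays normalized together and the genome build were not given in the sources used here. RMA equalises the distributions of the arrays, so a shift shared by most genes would not be seen.

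Of 35556 probe sets, 21789 name 1 gene, 1621 several and 12146 none in the platform annotation; symbols were updated for 21698. For each of 19938 genes the brightest probe set was kept, and genes whose mean over the 12 muscle arrays fell under the 40th percentile of all probe sets (6.19) were not tested. limma 3.58.1 in R 4.3.3 was fitted to the 12 muscle arrays with 4 group means and the animal number of the labels, read here as such, as a random block (consensus correlation 0.17; deviations of the 6 pairs correlated at r from -0.000815 to 0.378). The soleus arrays thus help to set the spread. The script was tested on simulated data. The arrays have no read depth, so their number limits precision, and 3 against 3 cannot go below an exact two-sided p of 0.1.

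Any called gene may be named. The 15 largest rises and falls, without predicted genes, get array values; from lists with no call, the members with the largest difference and the smallest p are named. Other named genes were chosen after their values were seen. Lists and members were chosen with earlier results of these data known. A change to or from a group whose arrays all lie below 6.19 is given as a bound. Of the 54 genes called lower, 1 is not reported here. Sequences are from RefSeq tables of GRCm38.p6.

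Alternatives were other filters, scalings, probe set rules, priors, array weights, no animal block, a slow fibre covariate, the 6 quadriceps arrays alone with and without a replicate block, and each quadriceps array left out.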

Additional observations from a re-analysis of the deposited data

How the results depend on the processing

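Against 91 genes called, the count was 42 with no filter on low values, of which 39 were among the 91, 50 with the slow fibre level as a covariate, 197 with estimated array weights, of which 88 were among the 91, and 25 with the 6 quadriceps arrays alone, of which 23 were. It ranged from 25 to 75 when each quadriceps array was left out in turn, and was between 81 and 116 under the filter at the 50th percentile, repeated quantile normalization, median centring, the mean of all probe sets, a trended and robust prior and no animal block. The share of calls that were higher was 40.7%, and 51.7% without KO replicate 1.

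KO and WT quadriceps come from different animals, and their replicate numbers do not pair them: deviations of same-numbered arrays correlated at r = -0.286, -0.211 and 0.0774, and 2 of 6 arrays correlated best with their own number. With the 6 arrays alone and the replicate number as a block, 12 genes passed, all among the 91, and 58.3% of them were higher.

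The count for the difference of the knockout effects in the 2 muscles, 0 in the fit described, was 1 with the filter at the 50th percentile and with repeated quantile normalization, 2 with a trended and robust prior and with array weights, 3 with the slow fibre covariate and 0 to 2 when arrays were left out. The values that changed sign were all of genes that did not pass: Chad was at -0.0106 with array weights and Vegfa at -0.00135 with the slow fibre covariate. When each array was left out in turn, Chad ranged from -0.0833 to 0.80, Vegfa from -0.0193 to 0.0700, Arnt from -0.0285 to 0.0375, Slc4a1 from -0.0151 to 0.38, Tnni3 from -0.68 to 0.0432, Acads from -0.103 to 0.0358, Ccng1 from -0.0375 to 0.00414, Ghr from -0.0135 to 0.102, Mdm2 from -0.0258 to 0.0491, Mir133a-1 from -0.343 to 0.0312, Mir181c from -0.0628 to 0.0676, Mir181d from -0.0726 to 0.0445 and Mir30d from -0.0231 to 0.0600. The causes were not tested. Of 96 genes named with a difference that were not called, 20 passed in at least 1 alternative and 13 changed sign in at least 1.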
